A study of Mus musculus with 20 samples.

Results

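Anti-PD-1 added to propafenone was examined by comparing tumours of mice given both agents with tumours of mice given propafenone, in 10 of the 20 RNA-seq libraries of the study. The 5 combination tumours and the 5 propafenone tumours were chosen by their labels, and all expressed genes were compared. All were implants of B16F10, a transplantable mouse melanoma line of C57BL/6 origin, in wild-type, immunocompetent mice of that strain, so tumour cells and host cells were sequenced together. Treatment was given into the peritoneum from a volume of about 100 mm3, and tumours were removed on day 16. Both groups received propafenone and differed in the antibody against PD-1. The other 10 tumours came from mice without propafenone, 5 given control IgG and 5 given anti-PD-1, and served as a parallel comparison that shares no library with the first. The labels do not state whether each tumour came from its own mouse, so p-values measure the spread between these samples.

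PD-1, encoded by Pdcd1, is an inhibitory receptor of activated T cells. Its ligand PD-L1, encoded by Cd274, is raised by interferon gamma on tumour and myeloid cells, and antibodies that block the receptor are used in melanoma to release T cells from this brake. B16F10 is known as a poorly immunogenic tumour that responds little to such antibodies alone. Propafenone is an antiarrhythmic blocker of sodium channels, and the series title links it to ferroptosis, a death by iron-dependent lipid peroxidation, and to synergy with immunotherapy.

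Libraries held 61.3 to 64.5 M (M, mega) expected counts in the combination group and 61.5 to 63.3 M in the propafenone group. Melanocyte genes summed to 22715 to 29757 CPM (counts scaled to a common size, with TMM factors) in all 10 tumours, and fibroblast, macrophage and T cell markers were detected beside them. Within the propafenone group the lowest correlations of log2 CPM were those of tumour 4 with tumours 3 (0.968) and 5 (0.971). Propafenone tumours 3 and 5 had the highest hypoxia scores of the group and tumour 4 the highest macrophage score. Combination tumour 3 held few muscle and many matrix transcripts. Propafenone tumours 4 and 5 also exceeded 1000 CPM of the haemoglobin gene Hbb-bs, at 1015 and 1855 CPM.

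With anti-PD-1 added to propafenone, genes of connective tissue, complement, alternatively activated macrophages and vessels were among those that rose, and hypoxia genes among those that fell. The highest and lowest medians of log2 fold change among the gene lists were those of skeletal muscle (2.77) and red blood cell genes (-3.00). T cell, cytotoxic, interferon gamma and ferroptosis genes gave few or no calls. edgeR's quasi-likelihood test called 616 of 15875 genes at a Benjamini-Hochberg adjusted p under 0.05, a share of 3.88%. Of these, 265 rose (1.67% of the genes tested) and 351 fell (2.21%). The genes that rose had a median log2 fold change of 1.32 and those that fell a median of -0.46, beside -0.007 over all genes tested. A change of at least 1.5-fold was reached by 240 that rose and 110 that fell. Values of the 2 groups did not overlap for 211 of the 265 genes that rose and 235 of the 351 that fell, beside 1353 (8.52%) of all genes tested. The calls were made on these same values, so the higher share among called genes is no added support.

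The direction of change was the same for all 616 genes in each of 10 fits that left out 1 library. These genes were called with the same libraries, so this is no independent check. The number of calls changed. It was 230, 437, 4, 1882 and 23 without propafenone tumours 1 to 5, and 133, 127, 50, 85 and 27 without combination tumours 1 to 5. Only Postn, Lum and Dnaja4 passed in each of these fits. Without propafenone tumour 3, 4 genes rose and 0 fell, while 2350 genes had an unadjusted p under 0.05. Calls reported below are those of the fit to all 20 libraries.

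**Figure D1:**
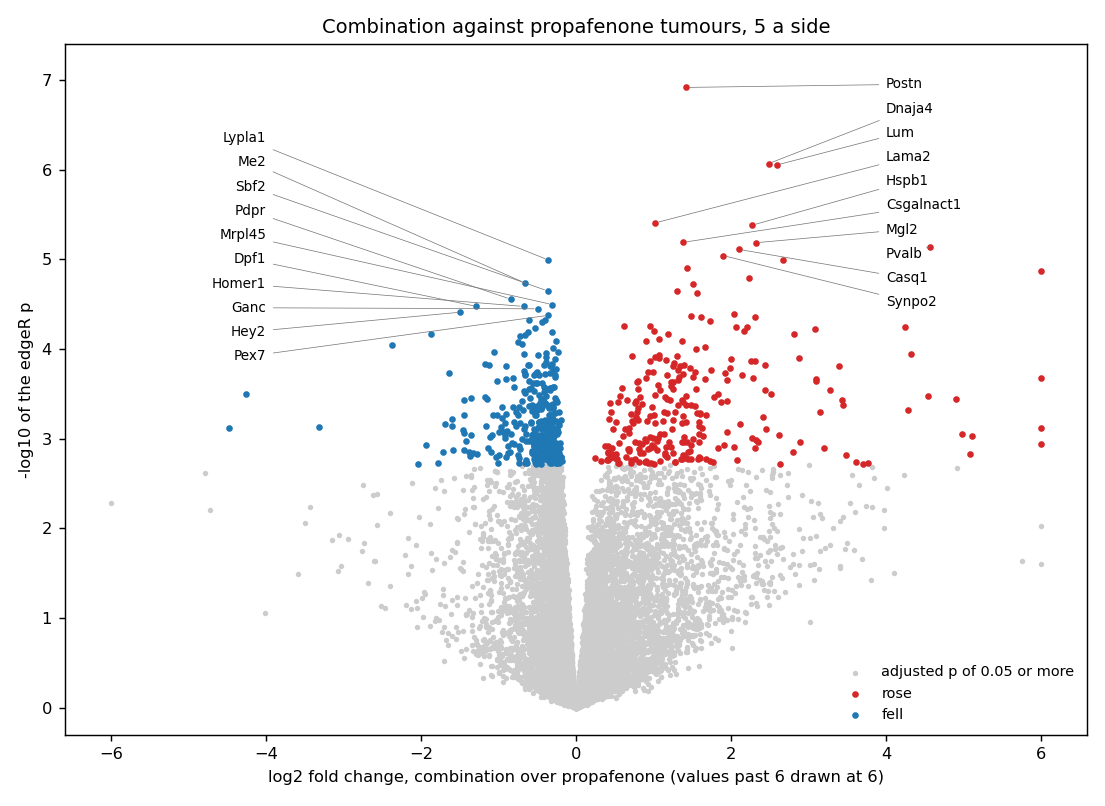
Each dot is 1 of 15875 genes, with the log2 fold change of combination against propafenone on the x axis (values past 6 drawn at 6) and −log10 of the unadjusted edgeR p on the y axis. The 10 labelled genes on each side had the smallest p among called genes that met the naming rule. That rule asks for at least 1 CPM, an ordinary symbol and a direction kept without any 1 library. Labelled genes on the right lie farther from 0 than most on the left.

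Matrix genes led the genes that rose. Postn (chr3:54361109-54391037, GRCm38, plus strand) encodes periostin, a matrix protein of activated fibroblasts. It measured 15.6, 24.9, 11.6, 20.3 and 22.8 CPM in propafenone tumours 1 to 5 and 56.3, 39.8, 60.2, 51.6 and 47.7 CPM in combination tumours 1 to 5. Every combination tumour lay above every propafenone tumour, and the group means were 51.1 ± 7.88 and 19.1 ± 5.43 CPM (SD, n = 5). The log2 fold change was 1.42 ± 0.181 (SE), with an edgeR adjusted p of 0.00193 that stayed between 0.00140 and 0.00762 with any 1 library left out. In bulk tumours, more cells of a type and more RNA per cell cannot be told apart.

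Lum (chr10:97565128-97572703, plus strand) encodes lumican, a small proteoglycan that spaces collagen fibrils. It measured 0.461, 1.51, 0.699, 1.43 and 1.01 CPM in propafenone tumours 1 to 5 and 3.71, 6.93, 10.1, 5.26 and 4.82 CPM in combination tumours 1 to 5. The groups did not overlap, and combination tumour 3 was the highest. Its log2 fold change was 2.59 ± 0.374 (edgeR adjusted p = 0.00471), and the adjusted p was at most 0.0318 with 1 library left out. Lama2, the laminin chain of muscle and stromal basement membrane, rose by 1.02 ± 0.164 from 2.45 ± 0.504 to 4.98 ± 0.489 CPM. Csgalnact1, which starts chondroitin sulfate chains, rose by 1.38 ± 0.230 from 0.880 to 2.30 CPM. Both passed in 9 of the 10 fits, with an adjusted p of 0.0521 without propafenone tumour 3.

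Of the 25 fibroblast and matrix genes listed and tested, 22 were higher, 13 rose and 0 fell, with a median log2 fold change of 0.96. The summed level of the list ran from 1826 to 3167 CPM in combination and from 1244 to 1622 CPM in propafenone tumours, without overlap, and combination tumour 3 held the highest sum. The fibrillar collagens Col3a1 and Col1a2, named with the following genes after their values were seen, went from 52.2 ± 22.8 to 283 ± 156 CPM and from 65.6 ± 19.4 to 186 ± 66.2 CPM. Col3a1 measured 36.0, 59.9, 21.4, 76.5 and 67.3 CPM in propafenone and 203, 203, 560, 209 and 239 CPM in combination tumours 1 to 5. Its rise of 2.44 ± 0.505 (edgeR adjusted p = 0.0261) was 2.03 at the least among the fits without 1 library.

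Collagens of other kinds rose as well. Col5a2, a chain of the collagen that nucleates fibrils, rose by 1.22, and Col6a1, Col6a2 and Col6a3, the chains of beaded microfilaments, rose by 0.93, 1.01 and 0.78. Membrane markers of fibroblasts rose too, Pdgfra, a growth factor receptor, by 1.08, Fap, a surface protease, by 1.17, and Thy1, shared with T cells, by 0.96. Bgn, a small proteoglycan, and Mmp2, a gelatinase, rose by 0.87 and 0.75. These 13 calls became 3, 8, 2, 16 and 2 without propafenone tumours 1 to 5, and 5, 5, 2, 4 and 2 without combination tumours 1 to 5.

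Skeletal muscle markers were higher beside them in 4 of 5 combination tumours. Combination tumour 3 had a muscle score of -0.84, within the -1.92 to 0.36 of the propafenone tumours. Its fibroblast score was the highest of its group (1.004, the next 0.48). A list score averages the members' log2 CPM after each gene was centred over the 20 libraries. With the muscle score as a covariate, chosen after the values were seen, 19 fibroblast genes were called. That score was higher in 4 of 5 combination tumours, so the fit cannot separate muscle content from treatment. The part of muscle was not tested. Without the libraries above 1000 CPM of Hbb-bs 18 fibroblast genes were called. Xist, the RNA of the inactive X chromosome of female cells, was also named after its values were seen. It measured 9.43 ± 2.43 CPM in combination and 3.77 ± 1.05 CPM in propafenone tumours (log2 1.32 ± 0.294, edgeR adjusted p = 0.0266, and 0.111 without propafenone tumour 3). The sex of the hosts was not used here.

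**Figure D2:**
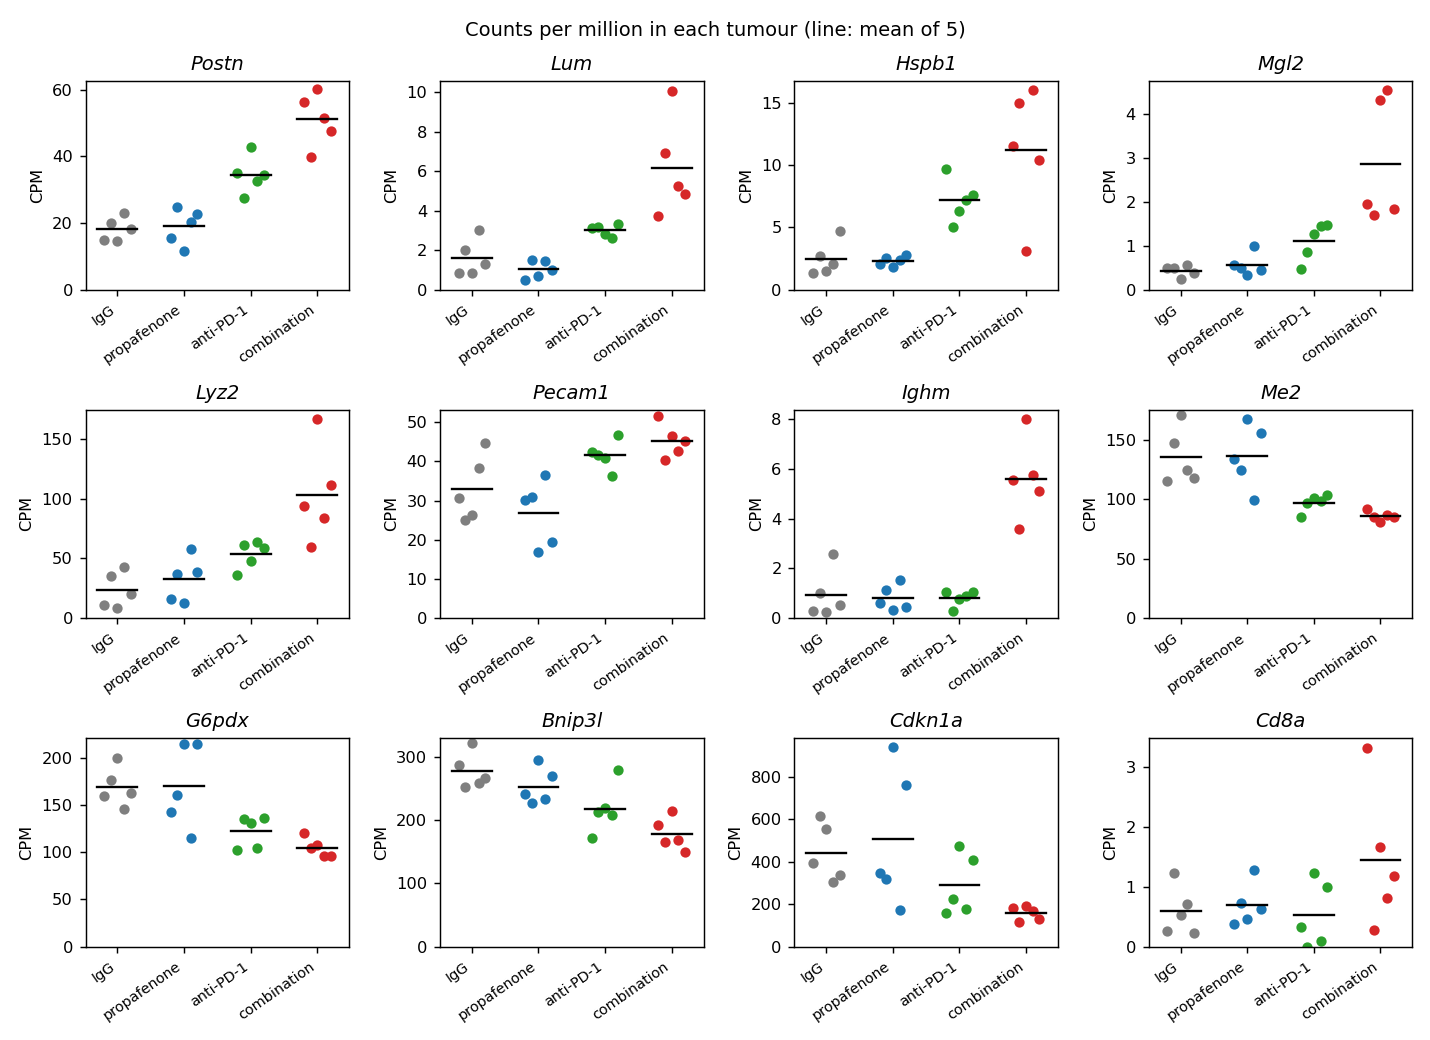
CPM of 12 genes in each of the 20 tumours by group, with 1 dot per tumour and a line at the mean of 5. Postn, Lum, Hspb1, Mgl2 and Ighm in all 5 combination tumours lie above all 5 propafenone tumours, whereas Cd8a overlaps between the groups.

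All 22 macrophage and monocyte markers tested were higher, at a median log2 fold change of 1.31, but only Lyz2 passed and 0 fell, a share of calls near that of all genes. Lyz2 (chr10:117277331-117282321, minus strand), the lysozyme of myeloid cells, measured 16.2, 36.6, 12.9, 57.5 and 38.2 CPM in propafenone and 93.5, 59.8, 167, 83.3 and 112 CPM in combination tumours 1 to 5. The highest propafenone tumour, number 4, lay just under the lowest combination tumour, number 2. The fold change was 1.67 ± 0.453 (edgeR adjusted p = 0.0473). Adgre1, which encodes the macrophage antigen F4/80, was next, at 15.6 ± 6.92 against 3.65 ± 2.87 CPM (2.09 ± 0.590, edgeR adjusted p = 0.0519). Summed levels of the list overlapped, at 257 to 559 CPM in combination and 80.9 to 273 CPM in propafenone tumours. Without propafenone tumour 4, 12 of the 22 were called, without propafenone tumour 2, 2 were, and in each of the other fits without 1 library 0 were.

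Genes of the alternatively activated, tissue-repair state of macrophages gave more calls. Of 15 tested, 13 were higher, 4 rose and 0 fell, with a median of 1.55. Mgl2 (chr11:70130329-70137550, plus strand), a galactose-binding lectin of this state, measured 0.557, 0.488, 0.341, 1.004 and 0.456 CPM in propafenone and 1.95, 1.70, 4.31, 4.54 and 1.84 CPM in combination tumours 1 to 5. Its groups did not overlap, combination tumours 3 and 4 were the highest, and it rose by 2.33 ± 0.388 (edgeR adjusted p = 0.0135, and 0.0521 without propafenone tumour 3). Stab1, a scavenger receptor, rose by 1.22 ± 0.276 from 12.2 to 28.5 CPM. The mannose receptor Mrc1 and the secreted Retnla, both named after their values were seen, rose by 1.45 ± 0.396 and 6.36 ± 1.65. Retnla was at 0 counts in propafenone tumours 1 to 4 and at 0.179 CPM in tumour 5, beside 0.460 to 9.41 CPM in combination tumours, so its fitted fold depends on a few counts. The 4 calls became 1, 2, 0, 4 and 1 without propafenone tumours 1 to 5, and 1, 2, 1, 1 and 1 without combination tumours 1 to 5. The 12 tested genes of the pro-inflammatory state were all higher, at a median of 1.04, and 0 were called. Their smallest p belonged to the costimulatory ligands Cd80 (1.12 ± 0.364, edgeR adjusted p = 0.0755) and Cd86 (1.41 ± 0.501, edgeR adjusted p = 0.1001).

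Complement genes were higher in all 15 members tested, at a median of 1.40, with 4 that rose and 0 that fell. Their summed levels overlapped, at 435 to 843 CPM in combination and 238 to 517 CPM in propafenone tumours. Cfp, properdin, which stabilises the alternative pathway convertase, rose by 1.55 ± 0.321 from 4.81 ± 2.11 to 14.0 ± 4.41 CPM (edgeR adjusted p = 0.0261). Cfb, factor B of the same convertase, rose by 1.40 ± 0.301 from 7.80 ± 1.87 to 20.6 ± 9.07 CPM. C3, the central component, and C5ar1, the receptor for the C5a fragment, were named after their values were seen and rose by 2.42 ± 0.579 and 1.56 ± 0.379. C3 measured 4.20, 5.53, 4.63, 9.78 and 8.46 CPM in propafenone and 17.6, 10.02, 98.1, 24.9 and 23.3 CPM in combination tumours 1 to 5. Combination tumour 3 stood well above the rest, and without it the fold change of C3 was 1.54, the least among these fits. The 4 complement calls became 2, 3, 0, 11 and 0 without propafenone tumours 1 to 5, and 2, 3, 0, 2 and 0 without combination tumours 1 to 5.

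Chemokines, the attractants of leukocytes, were higher in 19 of 20 members, at a median of 1.16, and 2 rose. Their summed levels overlapped, at 156 to 330 CPM in combination and 73.4 to 189 CPM in propafenone tumours. Ccl7, which draws monocytes, went from 2.68 ± 1.86 to 8.12 ± 0.571 CPM (1.60 ± 0.388, edgeR adjusted p = 0.0330), with the 5 combination tumours between 7.45 and 8.84 CPM and the highest propafenone tumour, number 4, at 5.77 CPM. Ccl11, eotaxin, rose by 1.99 ± 0.432 from 0.508 to 2.02 CPM (edgeR adjusted p = 0.0261). Ccl2, the main monocyte attractant, did not pass (1.19 ± 0.359, edgeR adjusted p = 0.0611), and Cxcl9, which recruits T cells under interferon gamma, was at 28.6 ± 12.5 and 20.2 ± 18.3 CPM (edgeR adjusted p = 0.731). The 2 calls became 1, 2, 0, 8 and 0 without propafenone tumours 1 to 5, and 0, 1, 0, 1 and 0 without combination tumours 1 to 5.

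T cell genes gave little that exceeded the spread between tumours. Of 24 T cell markers tested, 20 were higher, at a median of 0.46, and the only call was Thy1, which fibroblasts also express. Cd8a, the coreceptor of cytotoxic T cells, measured 0.382, 0.724, 0.455, 1.27 and 0.619 CPM in propafenone and 3.31, 0.268, 1.66, 0.814 and 1.17 CPM in combination tumours 1 to 5. Combination tumour 1 was the highest and combination tumour 2 the lowest of the 10, and the log2 difference of 1.06 ± 0.761 did not pass (edgeR adjusted p = 0.417). Il2ra, the high-affinity interleukin receptor chain of activated and regulatory T cells, was at 0.430 and 0.175 CPM (1.29 ± 0.612, edgeR adjusted p = 0.212). With the muscle score as a covariate the median of the T cell list was -0.096. The call of Thy1 was kept only without propafenone tumour 2 or 4 or combination tumour 2 among the fits without 1 library, and its adjusted p was 0.125 without propafenone tumour 3.

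All 12 cytotoxic effector genes tested were higher, at a median of 0.62, and 0 were called. Gzmb, the killing protease granzyme B, was at 1.97 ± 1.44 in combination and 1.87 ± 1.59 CPM in propafenone tumours (0.07 ± 0.839). Prf1, perforin, was at 1.55 ± 1.09 and 0.894 ± 0.826 CPM (0.79 ± 0.780, edgeR adjusted p = 0.572). Ifng, interferon gamma itself, was at 0.185 ± 0.180 and 0.130 ± 0.103 CPM (0.49 ± 1.04). Gzmk and Ccl5, the members with the smallest p, had edgeR adjusted p-values of 0.287 and 0.285. Of 12 natural killer genes listed, 5 were tested, all were higher and 0 were called, with Tyrobp, an adaptor also used by macrophages, first at 1.55 ± 0.476 (edgeR adjusted p = 0.0648) and Klrk1, the receptor NKG2D, next at 1.01 ± 0.655.

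Checkpoint genes were higher in 14 of 20 members, at a median of 0.40. The only call was a fall (5% of the list, beside 3.88% of all genes). Pvr (chr7:19903578-19921160, minus strand), a ligand of the receptors TIGIT and CD226, measured 102, 94.9, 150, 91.3 and 135 CPM in propafenone and 81.1, 70.3, 80.9, 67.9 and 71.5 CPM in combination tumours 1 to 5. The groups did not overlap, and propafenone tumours 3 and 5 were the highest. Its fold change was -0.63 ± 0.135 (edgeR adjusted p = 0.0261), named after its values were seen. The call was lost without propafenone tumour 3 (adjusted p = 0.121) or 5 (0.0851), and without each of combination tumours 2 to 5. Pdcd1, the target of the antibody, was at 1.15 ± 0.801 and 0.583 ± 0.389 CPM (0.98 ± 0.799, edgeR adjusted p = 0.482), and Cd274 at 12.8 ± 3.88 and 9.01 ± 2.59 CPM (0.51 ± 0.316, edgeR adjusted p = 0.346).

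Interferon gamma response genes were higher in 23 of 23 members, at a median of 0.57, with 0 calls. Their summed level was 2512, 774, 2149, 750 and 1298 CPM in combination tumours 1 to 5 and 311, 1599, 669, 2042 and 588 CPM in propafenone tumours 1 to 5. The groups overlapped: combination tumours 2 and 4 lay below propafenone tumours 2 and 4. Icam1, an adhesion molecule, and Ciita, the master regulator of class II genes, had the smallest p, at 1.03 ± 0.355 (edgeR adjusted p = 0.0920) and 1.40 ± 0.682 (0.223). In the anti-PD-1 against IgG comparison only 3 of the 23 were higher, at a median of -0.34. The difference between the 2 comparisons was not called by edgeR for any of them (adjusted p of 0.990 or above).

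Antigen presentation genes were mostly higher, with few calls. Calls were 5.26% of class I genes tested and 0% of class II genes, beside 3.88% of all genes. The type I interferon list, given with them, had 7.69%. Class I genes were higher in 18 of 19, at a median of 0.32, with 1 that rose, H2-Q7, a nonclassical class I chain (1.84 ± 0.422, 11.97 against 3.36 CPM, edgeR adjusted p = 0.0298 and 0.121 without propafenone tumour 3). H2-Q6, its near-identical neighbour, did not pass (1.49 ± 0.464, edgeR adjusted p = 0.0683), and how reads were divided between these copies is not known. H2-K1, a classical class I chain, was at 287 ± 140 and 228 ± 79.8 CPM (0.33 ± 0.402). Class II genes were higher in 10 of 11, at a median of 1.10, with 0 calls, and Ctss, the protease that trims the invariant chain, was at 46.0 ± 17.8 and 20.8 ± 11.7 CPM (1.15 ± 0.570). Type I interferon genes were higher in 24 of 26, at a median of 0.47, and 2 rose, the related DNA sensors Ifi204 (1.43 ± 0.376) and Ifi205 (2.04 ± 0.542), whose reads may also be shared. Both were called only without propafenone tumour 4 among the fits without 1 library, with 0.157 and 0.166 as adjusted p without propafenone tumour 3.

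The B cell, dendritic cell, neutrophil and mast cell lists each gave 1 call. These were 11.1%, 7.14%, 14.3% and 14.3% of the genes tested, beside 3.88% of all genes. Each of these shares rests on 1 gene of a short list. Ighm (chr12:113418558-113422730, minus strand), the constant region of immunoglobulin M, measured 0.588, 1.12, 0.309, 1.53 and 0.440 CPM in propafenone and 5.56, 3.57, 8.002, 5.76 and 5.10 CPM in combination tumours 1 to 5. No values overlapped, and tumours without propafenone were at 0.814 CPM with anti-PD-1 and 0.920 CPM with IgG. Its rise of 2.81 ± 0.563 (edgeR adjusted p = 0.0219) was the only call among 9 B cell genes tested of 14 listed, of which 8 were higher, at a median of 0.83. The light chain Igkc was at 1.38 ± 0.695 and 0.317 ± 0.325 CPM (2.11 ± 0.862, edgeR adjusted p = 0.149). Ighm was not called without propafenone tumour 3 (0.0890) or 5 (0.0650), or without combination tumour 3 or 5.

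Dendritic cell genes were higher in 13 of 14 tested, at a median of 1.05, with Naaa, a lysosomal amidase of cross-presenting cells, called at 0.68 ± 0.171, and Fscn1, the bundling protein of mature cells, at 0.83 ± 0.244 (edgeR adjusted p = 0.0568). Of 7 neutrophil genes tested 5 were higher, at a median of 0.59, and Csf3r, the receptor for granulocyte growth factor, rose by 1.77 ± 0.494. Mmp9, a protease of neutrophils and macrophages, was second at 2.14 ± 0.611 (edgeR adjusted p = 0.0520). Of 7 mast cell genes tested 6 were higher, at a median of 1.84. The chymase Mcpt4 went from 0.176 ± 0.111 to 1.24 ± 0.565 CPM (2.80 ± 0.758, edgeR adjusted p = 0.0448), and the carboxypeptidase Cpa3 was at 0.692 against 0.0758 CPM (edgeR adjusted p = 0.0823). Without propafenone tumour 3 the adjusted p was 0.147 for Naaa, 0.175 for Csf3r and 0.163 for Mcpt4. The calls of Csf3r and Mcpt4 were kept only without propafenone tumour 4 among these fits.

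Endothelial genes were higher in 15 of 18, at a median of 0.55, with 2 that rose and 0 that fell. Their summed levels overlapped, at 560 to 661 CPM in combination and 436 to 607 CPM in propafenone tumours. Pecam1 (chr11:106654217-106750628, minus strand), the junction protein CD31, measured 30.04, 30.9, 16.9, 36.5 and 19.4 CPM in propafenone and 51.6, 40.4, 46.5, 42.7 and 45.3 CPM in combination tumours 1 to 5. The groups did not overlap, and propafenone tumours 3 and 5 were the lowest. It rose by 0.76 ± 0.180 (edgeR adjusted p = 0.0311). Tek (chr4:94739289-94874976, plus strand), the angiopoietin receptor TIE2 of endothelium and some macrophages, rose by 2.17 ± 0.434 from 0.525 ± 0.326 to 2.37 ± 0.455 CPM (edgeR adjusted p = 0.0219). The 2 calls became 2, 2, 0, 9 and 0 without propafenone tumours 1 to 5, and 1, 1, 0, 1 and 0 without combination tumours 1 to 5.

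**Figure D3:**
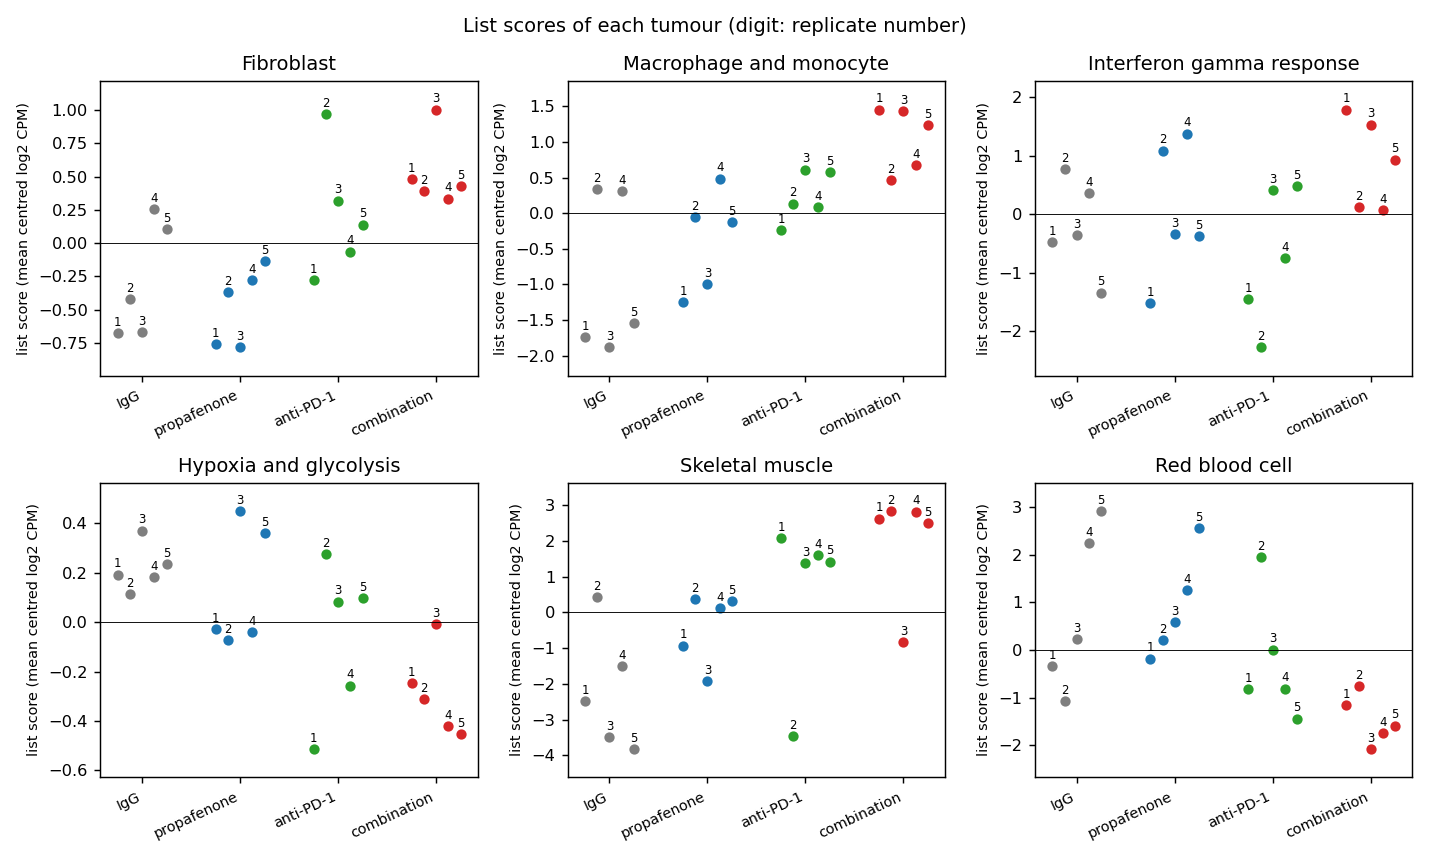
Scores of 6 gene lists per tumour (average log2 CPM of the members, each gene centred over the 20 libraries), with each digit the replicate number. Fibroblast scores of all combination tumours (0.335 to 1.004) lie above those of all propafenone tumours (-0.781 to -0.136), while interferon gamma scores overlap and combination tumour 3 lies apart in the muscle panel.

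Genes that fell were led by enzymes and intracellular proteins, with smaller changes than those that rose. Lypla1, a lysophospholipase that removes palmitate from proteins, went from 148 to 115 CPM (-0.36 ± 0.0619, edgeR adjusted p = 0.0135). Me2, the mitochondrial malic enzyme, measured 134, 125, 168, 99.3 and 156 CPM in propafenone and 92.2, 85.2, 81.3, 86.9 and 85.1 CPM in combination tumours 1 to 5. The groups did not overlap, and the combination tumours spread less, at 86.1 ± 3.97 against 136 ± 26.8 CPM (-0.66 ± 0.119, edgeR adjusted p = 0.0177). Pdpr, which regulates the phosphatase of pyruvate dehydrogenase, fell by 0.84 ± 0.157 from 18.0 to 10.04 CPM. Pex7, the receptor that imports enzymes into peroxisomes, went from 32.3 ± 0.918 to 25.2 ± 1.26 CPM (-0.36 ± 0.0693). Mrpl45, a mitochondrial ribosomal protein, Ganc, a neutral alpha-glucosidase, and Sbf2, a regulator of endosomal lipid signalling, fell by 0.31, 0.49 and 0.37.

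The remaining leading genes that fell were Dpf1, Hey2 and Homer1. Dpf1 (chr7:29303951-29318243, plus strand), a subunit of neuronal chromatin remodelling complexes, went from 13.1 ± 5.93 to 5.37 ± 1.11 CPM (-1.29 ± 0.244, edgeR adjusted p = 0.0219). Its lowest propafenone value, 7.22 CPM in tumour 4, lay just above the highest combination value, 7.19 CPM in tumour 3. Hey2, a transcriptional repressor downstream of Notch, fell by 1.49 ± 0.286 from 4.01 to 1.42 CPM, and Homer1, a scaffold of calcium signalling, by 0.68 ± 0.128 from 49.4 to 30.9 CPM. Each of the 10 leading genes that fell lost its call without propafenone tumour 3, at adjusted p of 0.0732 for Lypla1, 0.0862 for Me2, 0.0887 for Dpf1 and at most 0.105. Without propafenone tumour 5 Lypla1 alone of the 10 was called (0.0494), and the others stood at 0.0564 to 0.0611. Across the 10 fits Lypla1 passed in 9, Me2 and Sbf2 in 8, Hey2 in 6 and the other leading genes in 7.

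Hypoxia and glycolysis genes were lower in nearly all members. Of 30 tested, 28 were lower, 7 fell and 0 rose, at a median of -0.44, and summed levels did not overlap, at 24791 to 29862 CPM in combination and 30531 to 37890 CPM in propafenone tumours. Bnip3l and Bnip3, mitophagy receptors induced by low oxygen, fell by 0.51 ± 0.115 (254 to 178 CPM) and 0.70 ± 0.182 (577 to 355 CPM). Pdk1 and Pdk3, kinases that shut pyruvate dehydrogenase, fell by 0.50 ± 0.121 and 0.45 ± 0.109, and Hk2, the inducible hexokinase, by 0.36 ± 0.0990. Of these, Bnip3, Pdk1 and Hk2, and Vegfa and Ero1l below, were named after their values were seen. Vegfa (chr17:46016993-46032369, minus strand), the endothelial growth factor, measured 283, 265, 604, 191 and 554 CPM in propafenone and 172, 167, 245, 147 and 155 CPM in combination tumours 1 to 5. Propafenone tumours 3 and 5 were far above the rest, and propafenone tumour 4 lay below combination tumour 3. Vegfa fell by 1.10 ± 0.292 (edgeR adjusted p = 0.0448), and Ero1l, an oxidase of the endoplasmic reticulum, by 1.03 ± 0.278. The 7 calls became 2, 7, 0, 12 and 0 without propafenone tumours 1 to 5, and 0, 0, 1, 0 and 0 without combination tumours 1 to 5. With the muscle score as a covariate 0 were called, at a median of -0.24.

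Promoters of these genes were searched for the core letters of the hypoxia response element, ACGTG, on both strands over the 250 bases before the start in the RefSeq table of GRCm38.p6. The core was present in 17 of 27 list members in that table (63.0%), beside 24.2% of the 11922 tested genes matched to it and 20.7% of their 15157 promoters. Called members with such a match are shown by 2 examples, from 150 to 21 bases before the start, 5′ to 3′ on the gene's strand, with the match in capitals. Bnip3 holds an overlapping pair of matches that read CACGTG, and Hk2 holds 1 read on the opposite strand and another outside the shown stretch.
Bnip3, chr7:138909527-138909656, minus strand: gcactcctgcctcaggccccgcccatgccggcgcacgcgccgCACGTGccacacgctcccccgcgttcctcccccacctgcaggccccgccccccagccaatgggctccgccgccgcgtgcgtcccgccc
Hk2, chr6:82774475-82774604, minus strand: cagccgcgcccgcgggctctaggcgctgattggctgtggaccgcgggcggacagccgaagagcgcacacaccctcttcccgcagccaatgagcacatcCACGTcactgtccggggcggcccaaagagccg
A match is a description of letters, and binding was not measured.

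Most p53 targets and most genes of the AP-1 and immediate early list were lower. Calls in either direction were 16.7% and 5.26% of these lists, beside 3.88% of all genes. Cdkn1a (chr17:29090976-29100727, plus strand), the cell cycle inhibitor p21, measured 344, 319, 940, 173 and 761 CPM in propafenone and 180, 117, 190, 169 and 129 CPM in combination tumours 1 to 5. Propafenone tumours 3 and 5 were the highest, and propafenone tumour 4 lay within the range of the combination tumours. Cdkn1a fell by 1.69 ± 0.412 (edgeR adjusted p = 0.0357), and Ccng1, cyclin G1, fell by 0.66 ± 0.165 from 251 to 159 CPM. Sesn1, a sestrin of the same list named after its values were seen, rose by 0.40 ± 0.110 (edgeR adjusted p = 0.0480), but was called only without propafenone tumour 4 among the fits without 1 library (0.163 without tumour 3) and not with the muscle score as a covariate (0.29, adjusted p = 0.127). Of the 18 p53 targets 14 were lower, at a median of -0.33. Without propafenone tumour 3 or 5, Cdkn1a (0.163 and 0.118) and Ccng1 (0.173 and 0.111) were not called, nor were they in any fit without 1 combination tumour. Ccng1 was called only without propafenone tumour 2 or 4. Of 19 AP-1 and immediate early genes 15 were lower, at a median of -0.42. Ier3, an inducible survival gene, fell by 1.36 ± 0.365 from 187 ± 85.4 to 72.8 ± 14.7 CPM (edgeR adjusted p = 0.0461, and 0.191 without propafenone tumour 3). Fosl2 did not pass (-0.77 ± 0.247, edgeR adjusted p = 0.0762).

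Antioxidant enzymes of the NRF2 programme gave 2 falls and 0 rises among 20 genes, at a median of -0.07. G6pdx (chrX:74409483-74429194, minus strand), the first enzyme of the pentose phosphate pathway, measured 143, 162, 215, 115 and 216 CPM in propafenone and 120, 105, 108, 95.8 and 95.7 CPM in combination tumours 1 to 5. Propafenone tumours 3 and 5 were again the highest, and tumour 4 lay within the combination range. G6pdx fell by 0.70 ± 0.143 (edgeR adjusted p = 0.0245) and Me1, the cytosolic malic enzyme that also makes NADPH, by 0.49 ± 0.103 from 165 to 117 CPM. The 2 calls became 2, 2, 0, 3 and 0 without propafenone tumours 1 to 5, and 2, 2, 1, 0 and 0 without combination tumours 1 to 5. Hmox1, the haem-degrading enzyme of this programme, was at 92.4 ± 26.2 and 122 ± 36.8 CPM (-0.41 ± 0.304, edgeR adjusted p = 0.440), with combination tumour 3 at 139 CPM and the other combination tumours at 76.7 to 85.2 CPM.

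Ferroptosis genes, named by the title of the series, had list medians near 0, while some members differed more. Of 21 suppressors tested 6 were higher, 1 rose and 1 fell (9.52% called, beside 3.88% of all genes), at a median of -0.06. The one that rose was Hspb1, a small heat shock protein described below, and the one that fell was Mboat2, a phospholipid-remodelling acyltransferase (-0.35 ± 0.0934, edgeR adjusted p = 0.0432, and 0.216 without propafenone tumour 3). Gpx4, the peroxidase that repairs lipid peroxides, was at 208 ± 12.9 and 235 ± 30.5 CPM (-0.18 ± 0.113, edgeR adjusted p = 0.353). Slc7a11, the cystine importer, was at 11.7 ± 2.28 and 8.49 ± 3.09 CPM (0.46 ± 0.333, edgeR adjusted p = 0.422), and Cisd1, an iron-sulfur protein of mitochondria, at -0.21 ± 0.0736. None of the 22 drivers tested was called, at a median of -0.08, although 10 were higher and single members ran from -0.51 to 2.29. Acsl4, which primes polyunsaturated lipids for peroxidation, was at 40.6 ± 3.71 and 51.1 ± 7.45 CPM (-0.33 ± 0.147, edgeR adjusted p = 0.178), with Ncoa4, the ferritin receptor of autophagy, at -0.24 ± 0.0895 and the channel Vdac3 at -0.17 ± 0.0708. Of 16 iron-handling genes tested 8 were higher and 0 were called, at a median of -0.02 (0.02 with scaling to library totals), and Tfrc, the transferrin receptor, was at -0.24 ± 0.118 (edgeR adjusted p = 0.233).

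Respiratory genes of the nucleus leaned lower and those of the mitochondrial genome higher, with 1 call in each nuclear list. These calls were 2.70% of complex I genes and 2.56% of those of complexes II to V, below the 3.88% of all genes. Complex I genes were lower in 24 of 37, at a median of -0.04 that was 0.001 with scaling to library totals and 0.03 with the muscle score as a covariate. Ndufs3, a core subunit, fell by 0.30 ± 0.0796 from 139 to 113 CPM (edgeR adjusted p = 0.0418). Ndufv3, an accessory subunit, was at -0.56 ± 0.164 (edgeR adjusted p = 0.0547). Genes of complexes II to V were lower in 33 of 39, at a median of -0.11, and Uqcrfs1, the Rieske iron-sulfur subunit, fell by 0.35 ± 0.0843 from 200 to 157 CPM (edgeR adjusted p = 0.0311), with Atp5a1, the ATP synthase alpha chain, at -0.22 ± 0.0625 (edgeR adjusted p = 0.0532). Ndufs3 and Uqcrfs1 had adjusted p-values of 0.188 and 0.166 without propafenone tumour 3. The 13 genes of mitochondrial DNA were higher in 12 cases and called in 0, at a median of 0.15, with mt-Nd6 at 0.27 ± 0.111 and mt-Nd2 at 0.29 ± 0.128.

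Genes of the heat shock list were mostly higher, with 1 call, Hspb1 (6.25% of the list, beside 3.88% of all genes). Hspb1 (chr5:135887919-135889563, plus strand) encodes the small heat shock protein HSP27, which holds unfolded proteins and actin, and is abundant in muscle as well as in stressed cells. It measured 2.05, 2.57, 1.82, 2.39 and 2.79 CPM in propafenone and 11.6, 15.0, 3.09, 16.1 and 10.4 CPM in combination tumours 1 to 5. The groups did not overlap, and combination tumour 3, the tumour poor in muscle transcripts, lay just above the propafenone tumours. Its rise of 2.27 ± 0.365 (edgeR adjusted p = 0.0132, and 0.0521 without propafenone tumour 3) was 1.83 with the muscle score as a covariate (0.0213). Dnaja4 (chr9:54698873-54716315, plus strand), an HSP40 partner of HSP70 outside this list, rose by 2.48 ± 0.358 from 0.374 ± 0.160 to 2.10 ± 0.861 CPM (edgeR adjusted p = 0.00471). The tumours with IgG and anti-PD-1 were at 0.851 and 1.38 CPM of Dnaja4. Of the 16 genes of the heat shock list 14 were higher, at a median of 0.25, and Hspb1 was its only call. Hspa1a, one of a pair of near-identical genes, was at 1.29 ± 0.509 (edgeR adjusted p = 0.137).

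The promoter of Hspb1 carries paired heat shock element letters, GAANNTTC, which were present in 6 of 11 list members in the RefSeq table, beside 6.13% of the tested genes in it and 5.03% of their promoters. Its stretch from 150 to 21 bases before the start is shown with both matches in capitals.
Hspb1, chr5:135887769-135887898, plus strand: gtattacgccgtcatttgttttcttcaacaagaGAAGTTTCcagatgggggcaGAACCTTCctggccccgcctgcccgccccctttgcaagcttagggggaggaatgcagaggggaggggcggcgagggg
Among 20 genes of ATF4 and the unfolded protein response 13 were higher, at a median of 0.08, and Dnajb9, a co-chaperone of the endoplasmic reticulum, rose by 0.63 ± 0.159 from 25.5 to 39.3 CPM (edgeR adjusted p = 0.0368, and 0.122 without propafenone tumour 3). Atf5, a stress transcription factor, was at 0.52 ± 0.162 (edgeR adjusted p = 0.0671).

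Melanocyte lineage genes, which mark the tumour cells, were higher in 16 of 19, at a median of 0.21, with 0 calls. Trpm1, a channel gene of melanocytes, had the smallest p (957 ± 96.9 against 541 ± 221 CPM, 0.82 ± 0.252, edgeR adjusted p = 0.0656), followed by the melanosome exchanger Slc24a5 (0.36 ± 0.130). Mitf, the lineage's master factor, was at 695 ± 128 and 487 ± 154 CPM (0.51 ± 0.328, edgeR adjusted p = 0.363). Cell cycle genes were split evenly, 14 of 28 higher with 0 calls and a median of 0.003 (-0.017 without propafenone tumour 3), and the survivin gene Birc5 was at 126 ± 2.54 and 114 ± 12.3 CPM, with the replication helicase gene Mcm2 at 0.18 ± 0.124. Of 18 genes of the TGF-beta pathway 8 were higher, at a median of -0.015 (0.027 with scaling to library totals), and Ltbp4, which stores the latent ligand in matrix, rose by 0.80 ± 0.182 (edgeR adjusted p = 0.0282, and 0.115 without propafenone tumour 3), named after its values were seen. Its relative Ltbp1 was at -0.67 ± 0.272 and the transducer Smad2 at -0.14 ± 0.0669, both without a call. NF-kappaB targets were higher in 14 of 17, at a median of 0.82, with 0 calls, led by Ccl2 and Icam1.

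Markers of tissues beside the tumour moved with the comparison, and their part in the results above was not tested beyond the covariate and left-out fits given. All 22 skeletal muscle genes were higher, at a median of 2.77, and 5 rose. Pvalb, the calcium buffer of fast fibres, went from 0.269 ± 0.143 to 6.42 ± 3.12 CPM (4.57 ± 0.759), and Casq1, the calcium store protein, from 1.70 ± 0.451 to 7.28 ± 3.03 CPM (2.10 ± 0.354), both with an edgeR adjusted p of 0.0135. Ckm, muscle creatine kinase, measured 2.02, 5.21, 0.211, 4.17 and 5.39 CPM in propafenone and 43.0, 44.9, 6.83, 46.3 and 38.1 CPM in combination tumours 1 to 5. Mylpf and Tpm2, contractile proteins named with Ckm after their values were seen, rose by 2.45 and 1.93. Synpo2, an actin-bundling protein of muscle outside this list, rose by 1.897 ± 0.324 from 1.28 to 4.79 CPM (edgeR adjusted p = 0.0135, and 0.0521 without propafenone tumour 3). The summed muscle level was 624, 749, 73.2, 717 and 565 CPM in combination tumours 1 to 5 and 51.7 to 127 CPM in propafenone tumours, so combination tumour 3 fell in the propafenone range. The 5 calls became 3, 5, 0, 6 and 2 without propafenone tumours 1 to 5, and 3, 3, 5, 2 and 2 without combination tumours 1 to 5. In anti-PD-1 against IgG all 22 muscle genes were also higher, at a median of 2.70. Medians there were 1.48 for adipocyte, 4.65 for keratinocyte and -1.28 for red blood cell genes.

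Fat, skin and blood markers differed in turn. Adipocyte genes were higher in 10 of 10 tested, at a median of 1.78, and Lpl, the lipase of fat and muscle vessels, rose by 1.37 ± 0.376 from 7.62 to 19.7 CPM (edgeR adjusted p = 0.0473, and 0.177 without propafenone tumour 3). Car3, the carbonic anhydrase of fat and muscle, was at 23.6 ± 13.01 and 1.26 ± 1.12 CPM (4.23 ± 1.20, edgeR adjusted p = 0.0541). With the muscle score as a covariate the log2 fold changes were 0.63 for Lpl (adjusted p = 0.145) and 1.23 for Car3 (0.233). Keratinocyte genes were higher in 14 of 17, at a median of 0.88 that turned to -0.42 without combination tumour 4, with 0 calls; Sfn was at 0.66 ± 0.294, and Sprr1a was at 0 in 4 propafenone and 3 combination tumours. Red blood cell genes were lower in 9 of 10, at a median of -3.00. Slc4a1, the band 3 anion exchanger, measured 1.46, 1.87, 2.62, 2.07 and 17.7 CPM in propafenone and 0 to 0.424 CPM in combination tumours (-4.47 ± 1.11, edgeR adjusted p = 0.0367, and 0.128 without propafenone tumour 5). Summed red cell levels were 317 to 607 CPM in combination and 905 to 6779 CPM in propafenone tumours, without overlap.

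**Figure D4:**
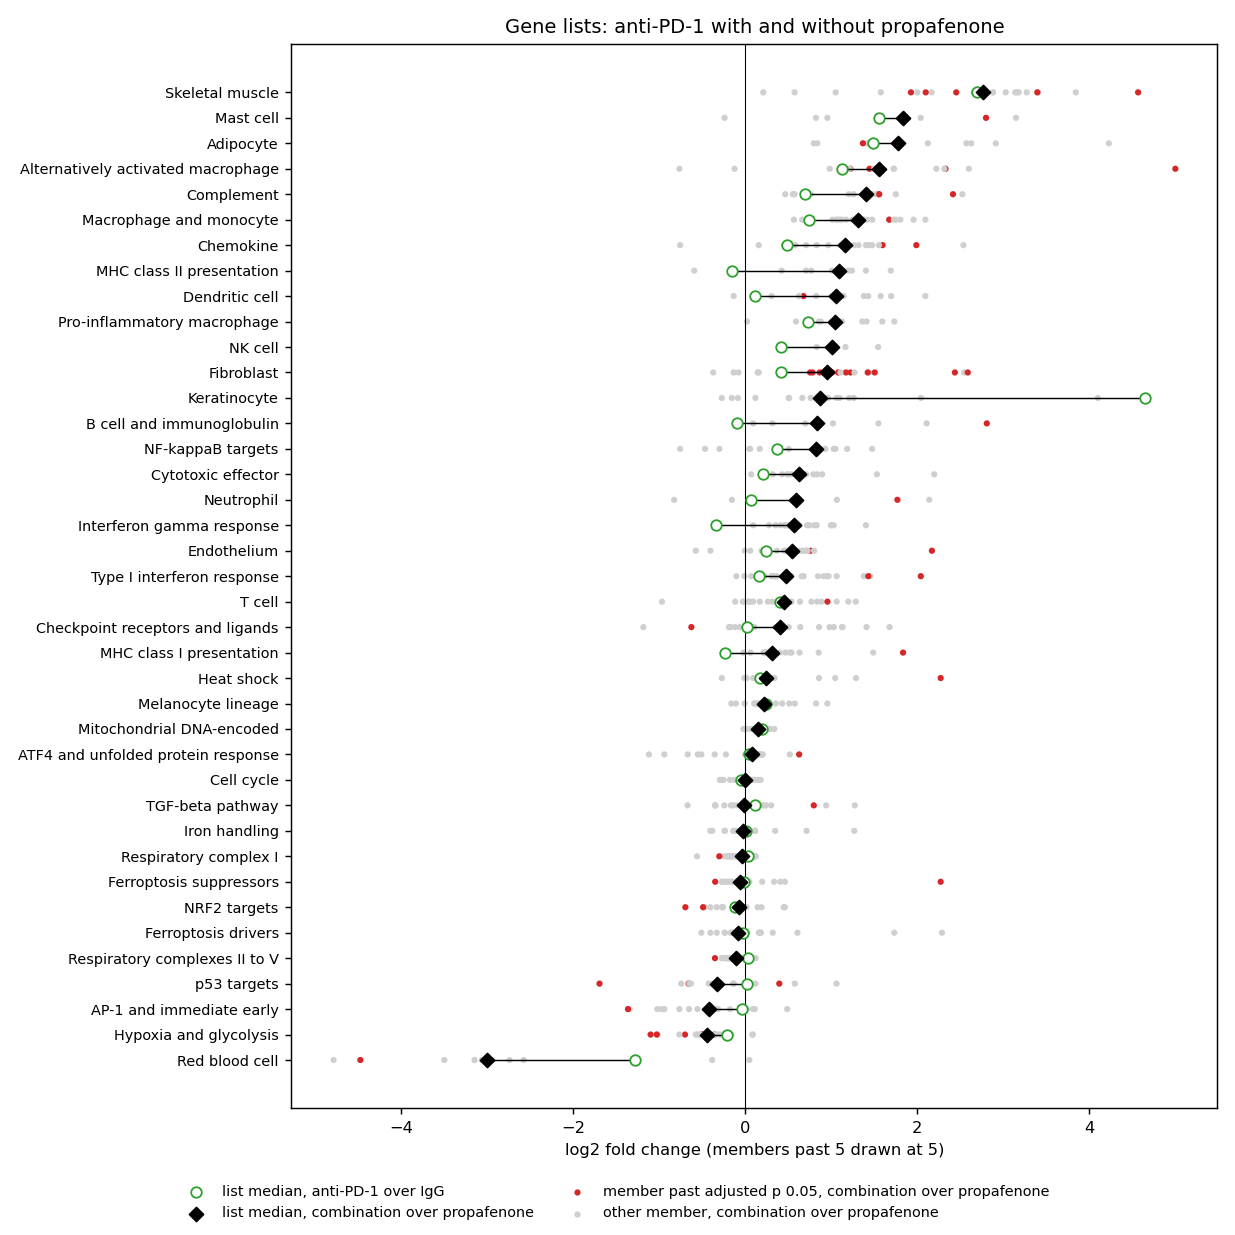
Log2 fold changes of the members of 39 gene lists, with 1 dot per gene (red where called, values past 5 drawn at 5), a black diamond at the median for combination against propafenone and an open green circle at the median for anti-PD-1 against IgG. Fibroblast, macrophage and complement medians lie above 0 in both comparisons, whereas the interferon gamma median is 0.57 in the first and -0.34 in the second.

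The same antibody without propafenone gave no call by this test. Anti-PD-1 against IgG called 0 of 15875 genes (0%) in edgeR, with a smallest adjusted p of 0.349 and 1203 genes with p below 0.05 before adjustment, while DESeq2 called 21. The difference between the 2 comparisons, tested as an interaction, called 0 genes (smallest adjusted p 0.990, 482 with p below 0.05 before adjustment), while DESeq2 called 2. The comparisons share no library, though they share 1 estimate of the spread. Of the 265 genes that rose with anti-PD-1 on propafenone, 257 (97.0%) were also higher with anti-PD-1 than with IgG, at a median log2 of 0.55. Of the 351 that fell, 343 (97.7%) were lower, at a median of -0.19, whereas 69.7% of all tested genes had the same sign. An unadjusted p under 0.05 in the same direction was found for 110 and 132 of them, and in the opposite direction for 0. Over all 15875 genes tested it was found for 1137 in the same direction and 66 in the opposite direction. The called genes were picked by their size in the first comparison, so their smaller size in the second is not a measured difference.

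Values of single genes in the parallel comparison follow. Postn was at 34.4 CPM with anti-PD-1 and 18.1 CPM with IgG (0.93 ± 0.179), Hspb1 at 7.17 and 2.47 CPM (1.54), Mgl2 at 1.10 and 0.431 CPM (1.35 ± 0.386), Dpf1 at 5.71 and 12.2 CPM (-1.09 ± 0.243) and Me2 at 97.0 and 135 CPM (-0.48), none of them past the threshold. Among genes of at least 1 CPM with an ordinary symbol, the smallest interaction p on the higher side was at Ighm, where anti-PD-1 against IgG gave -0.17 and the interaction was 2.98, followed by Dnaja4 at 1.78 ± 0.485, Lum at 1.68 and Lama2 at 0.76 ± 0.231. On the lower side stood Ankfn1, an ankyrin repeat gene (-1.19 ± 0.304), Ganc (-0.45 ± 0.133), Bdh1, the ketone body dehydrogenase (-0.42 ± 0.124), and Usp54 (-0.41 ± 0.120). Ankfn1, Bdh1 and Usp54 fell by 0.84, 0.35 and 0.35 in combination against propafenone, and their adjusted p without propafenone tumour 3 was 0.132, 0.147 and 0.149. All 8 interactions had an edgeR adjusted p of 0.990.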

How the data were processed

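RNA was sequenced from 20 tumours in 4 groups of 5. The authors deposited a table of expected counts, given as whole numbers, and a table of TPM values. Low expected counts of 4 and 8 were more frequent than their neighbours, and the number of counts per fragment is not known. Per the submitters' processing notes, HISAT2 2.2.1, SAMtools 1.9 and FastQC were used with GRCm38 or mm10, and per the labels libraries came from a SMARTER mRNA kit. For the counting tool, annotation and strand setting, the answer is not given in the sources used here, so overlapping antisense genes cannot be separated. The deposited TPM served as an alternative. All columns were mapped to samples.

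Expected counts entered edgeR 4.0.16 under R 4.3.3 (filterByExpr, TMM, robust quasi-likelihood fit, 4 group means, 16 residual degrees of freedom, Benjamini-Hochberg adjustment). The filter kept 15875 of 32285 genes, with 99.98% of the counts. The common coefficient of biological variation was 0.252. SE is the log2 fold change over the square root of F. Within-group pairs differed by at least 4.44 in chi-square per degree of freedom, with counts divided by 4, so no library was a copy of another in its group. Pairs across groups were not compared in this way. Alternatives used DESeq2 1.42.0, limma 3.58.1, other scalings and filters, and left-out libraries.

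The comparison and the 39 gene lists were chosen with earlier results of these data known, and lists are described by counts and medians, without a test. Named genes are up to 10 in each direction with the smallest p among those called, of at least 1 CPM, that kept their direction without any 1 library. To these were added 4 interaction genes in each direction, a panel of 14 and the 2 members of each list with the smallest p in the direction of its median. Coordinates are from GENCODE M21, where 32235 identifiers were found.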

Additional observations from a re-analysis of the deposited data

Results flagged for a closer look

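A tumour far from the other 4 of its group was found in 9 of 152 groups of 5 values tested, all of them combination tumours, and chance marks about 1 in 20 groups. Combination tumour 3 accounted for 5. Its Ankfn1 level was 16.4 CPM (the next 28.8), its Hmox1 level 139 CPM (the next 85.2), its fibroblast score 1.004 (the next 0.48), its skeletal muscle score -0.84 (the next 2.49) and its adipocyte score -1.54 (the next 1.60). Combination tumour 1 was the highest for Ifng, at 0.502 CPM (the next 0.142), and for Mitf, at 920 CPM (the next 658). Combination tumour 2 was the highest for Lama2, at 5.85 CPM (the next 4.82), and the lowest in the mast cell score, at 0.78 (the next 1.21).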

How the results depend on the processing

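The count of 616 genes for combination against propafenone was 347 with scaling to library totals, 335 with no filter, 350 with a fold of at least 1.5, 1069 with the 10 compared libraries alone, 1466 by DESeq2 and 4 to 1882 with 1 library left out. Without the 5 libraries above 1000 CPM of Hbb-bs, chosen after seeing the data, it was 1142, of which 494 were among the 616, and with the muscle score as covariate 821, of which 364 were. The share of calls that were higher was 43.0%, and 74.3% with library totals (258 higher, 89 lower), 53.8% with a mean of at least 1 CPM (234, 201), 56.6% by limma voom (522, 400), 58.3% with counts divided by 4 (405, 290), 82.3% on log2(TPM + 1) (638, 137), 81.8% on log2(TPM + 0.1) (459, 102) and 68.6% with the fold minimum. Anti-PD-1 against IgG called 21 genes by DESeq2, 13 without the Hbb-bs libraries and 0 to 1 with 1 library left out (1 without IgG tumour 4 and 1 without anti-PD-1 tumour 2), and the interaction called 2 by DESeq2. Why these counts differ was not tested. Deviations of same-numbered libraries had a mean correlation of -0.00694 over 30 pairs, with a range of -0.410 to 0.369. For 7 of the 20 libraries the closest match carried the same number. The mean shows no common deviation by number, but with this range it cannot exclude that some numbers pair samples. A replicate block gave 675 calls, of which 508 were among the 616. Medians of 6 of the 39 lists changed sign in some alternative: T cell, TGF-beta, cell cycle, complex I, iron handling and keratinocyte. No called named gene changed sign in any alternative run. The leading genes were chosen for keeping their direction in the left-out fits, and the runs share most libraries, so this is not independent support. Genes under 1 CPM, such as Ifng and Gzmk, rest on few counts.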
